A study of Homo sapiens with 2 samples.

Results

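The genes described here are the WNT ligands, their Frizzled receptors, secreted antagonists of WNT signaling, and the core of the pathway that the ligands drive. They were taken from the deposited table as its protein-coding rows named WNT, FZD, DKK or SFRP with a number, together with LRP5, LRP6, ROR1, ROR2, CTNNB1, AXIN1, AXIN2, APC, TCF7L1, TCF7L2 and LEF1. This gave 48 of the 58735 genes in the table, of which 19951 are protein-coding. The 48 genes are 19 WNT ligands, 10 Frizzled receptors, 2 LRP co-receptors, 2 ROR receptors, 4 DKK and 4 SFRP antagonists, 4 genes of β-catenin and its destruction complex, and 3 TCF/LEF factors.

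RNA was sequenced from SF-539, a human glioblastoma (GBM) cell line, after lentiviral transduction and puromycin selection. The shControl cells carried the pGIPZ control vector and the shFKBP9 cells carried an shRNA against FKBP9, a peptidyl-prolyl isomerase of the endoplasmic reticulum (ER), and the cells of both groups were at passages 15 to 18. The labels speak of stable clones; how many clones each library holds, and which of the FKBP9 shRNAs it carries, is not given in the sources used here. There was 1 library per condition, so no difference below has a replicate check and no test between the conditions could be made.

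WNT proteins are lipid-modified secreted ligands that bind Frizzled receptors on the cell surface. In the canonical branch, Frizzled and an LRP co-receptor switch off the destruction complex built on AXIN and APC, so that β-catenin (CTNNB1) reaches the nucleus and acts with TCF/LEF factors. In the β-catenin-independent branch, ligands such as WNT5A act through Frizzled with ROR or RYK receptors on cell polarity and movement. DKK proteins block LRP co-receptors and SFRP proteins bind WNT ligands in the extracellular space. In GBM, WNT signaling is studied for its part in stemness and invasion, and the study asked whether WNT was among the growth-related pathways that FKBP9 acts on.

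Levels are given as FPKM, the fragments on a gene scaled by its length and by the library size, together with the number of fragments recovered from it. The libraries held 18116873 fragments on genes in shControl and 17158514 in shFKBP9, and the median log2 ratio of all genes at 1 FPKM or more in either library was -0.02. FKBP9 itself was at 49.8 FPKM in shControl and 4.68 FPKM in shFKBP9, so that 9.39% remained. Of the markers of the cell type, mesenchymal genes ran from 2.17 FPKM (NES) to 3229 FPKM (LGALS1) over the libraries, with VIM, TNC and S100A6 at 271 FPKM or more. The 7 glial markers ran from 0 fragments (AQP4 and OLIG1 in both libraries) to 1.46 FPKM (PDGFRA in shControl, 0.976 FPKM in shFKBP9), with shControl at 0.20 FPKM and shFKBP9 at 0.14 FPKM for GFAP. The labels call the cells epithelial, but CDH1, the epithelial cadherin, had 0 fragments in shControl and 1 in shFKBP9. KRT8, the highest of the epithelial markers, was at 1.28 FPKM and 1.09 FPKM (159 and 129 fragments). The 8 epithelial markers held 216 and 209 fragments in all (KRT14 had 1 and 24), and the 8 blood and endothelial markers held 33 fragments in each library.

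The promoters of 3 genes are shown for reference, read from RefSeq (GRCh38.p14) as 250 bases before and 50 bases after an annotated start. WNT5A is shown as the leading ligand, at the upstream one of its 2 starts in that table, SFRP4 as the gene with the largest log2 ratio among those holding at least 10 fragments, and DKK1 as the only one of the 34 members found in that table whose promoter held the TCF/LEF core CTTTGA. Capitals mark that core, the GC box GGGCGG and the core of the unfolded protein response (UPR) element TGACGTGG, each searched on both strands, so that a match may appear as its reverse complement. All 3 windows are written 5′ to 3′ on the strand of the gene. The choice of DKK1 and of the UPR element was made after the sequences had been read.
WNT5A promoter (chr3:55487257-55487556, minus strand): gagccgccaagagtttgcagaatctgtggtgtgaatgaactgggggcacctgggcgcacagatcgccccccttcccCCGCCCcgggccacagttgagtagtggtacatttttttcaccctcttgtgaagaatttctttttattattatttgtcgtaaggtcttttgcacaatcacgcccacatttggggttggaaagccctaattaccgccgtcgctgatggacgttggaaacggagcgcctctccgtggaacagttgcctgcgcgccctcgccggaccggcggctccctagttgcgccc
SFRP4 promoter (chr7:37916768-37917067, minus strand): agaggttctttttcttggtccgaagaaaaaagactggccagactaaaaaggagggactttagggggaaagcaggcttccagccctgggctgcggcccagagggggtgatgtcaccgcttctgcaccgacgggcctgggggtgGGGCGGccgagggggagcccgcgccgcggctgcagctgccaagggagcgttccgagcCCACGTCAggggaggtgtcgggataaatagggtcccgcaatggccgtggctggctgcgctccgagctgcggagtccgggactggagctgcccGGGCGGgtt
DKK1 promoter (chr10:52314031-52314330, plus strand): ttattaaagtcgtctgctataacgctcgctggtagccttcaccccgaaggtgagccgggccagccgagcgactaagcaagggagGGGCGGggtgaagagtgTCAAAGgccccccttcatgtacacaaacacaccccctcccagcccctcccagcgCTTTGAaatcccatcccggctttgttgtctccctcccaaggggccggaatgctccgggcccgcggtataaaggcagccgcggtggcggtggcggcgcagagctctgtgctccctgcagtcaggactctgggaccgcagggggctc

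The 34 members had 40 promoter windows. The GC box lay in 31 of these (77.5%) against 45.0% of all 35116 promoters, and the median GC content was 68.5% in the member windows and 58.7% in all. The TCF/LEF core lay in 1 member window (2.50%), that of DKK1, which held it at 2 places, against 12.9% of all promoters. The UPR element core lay in 1 member window, that of SFRP4, and in 0.729% of all promoters. The cores of the ATF4 composite site (TGATGNAA, in 3.62% of all promoters) and of AP-1 (TGANTCA, in 7.71%) lay in 0 member windows. These are matches of letters in a window of 300 bases and not sites of binding.

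The levels of the WNT genes in SF-539 cells ran from no fragment to 40.0 FPKM in shControl (CTNNB1) and 42.6 FPKM in shFKBP9 (WNT5A). Of the 48 genes, 17 reached 1 FPKM in either library, 12 more had 10 or more fragments summed over the libraries but stayed under 1 FPKM, 7 had between 1 and 9 fragments, and 12 had none. The 12 genes without a fragment were WNT1, WNT2, WNT3A, WNT6, WNT7A, WNT8A, FZD9, FZD10, ROR2, DKK4, SFRP1 and SFRP5. For these, a count of 0 allows up to 3 fragments, which corresponds to between 0.0285 FPKM (ROR2) and 0.185 FPKM (DKK4) in shControl.

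**Figure D1:**
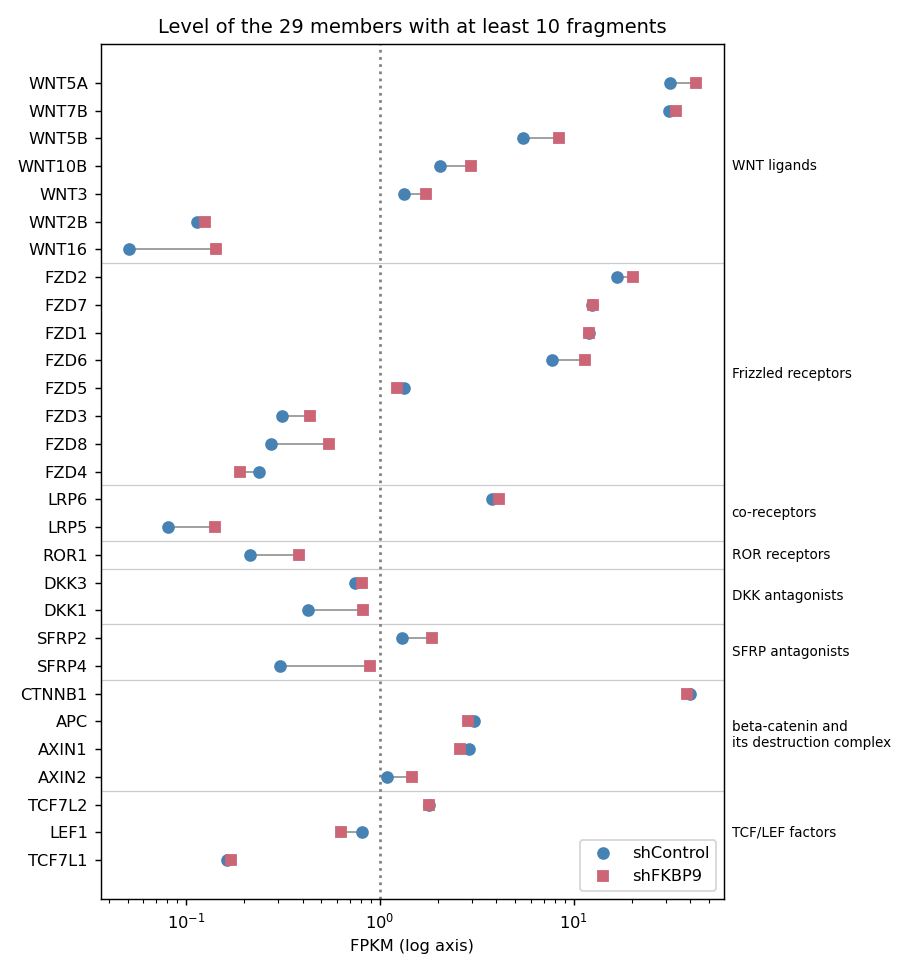
FPKM (log axis) of the 29 members with 10 or more fragments summed over the libraries, in shControl (circles) and shFKBP9 (squares), grouped by role; the dotted line is 1 FPKM and each symbol is 1 library. CTNNB1, WNT5A and WNT7B sit at the top near 30 to 40 FPKM, and 12 genes lie under 1 FPKM.

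Among the ligands, WNT5A and WNT7B were at nearly equal levels in shControl. WNT5A (ENSG00000114251), the typical ligand of the β-catenin-independent branch, was at 31.6 FPKM in shControl and 42.6 FPKM in shFKBP9, from 4229 and 5412 fragments. WNT7B, which acts in brain vessel and lung development, was at 31.0 FPKM and 34.0 FPKM, from 2835 and 2945 fragments. These levels exceeded those of 93.1% and 93.0% of protein-coding genes in shControl. The ratio of WNT5A to WNT7B was 1.02 in shControl and 1.25 in shFKBP9.

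WNT5B, the paralog of WNT5A, was at 5.47 FPKM in shControl and 8.46 FPKM in shFKBP9, from 426 and 625 fragments. WNT10B, a canonical ligand, was at 2.04 FPKM and 2.95 FPKM, from 97 and 133 fragments, and WNT3, another canonical ligand, at 1.34 FPKM and 1.73 FPKM, from 105 and 129 fragments. Of the 5 ligands above 1 FPKM, 4 were higher in shFKBP9 beyond counting error, against 14.0% of all genes with at least 10 fragments. The difference was 1.55-fold for WNT5B (95% interval 1.37 to 1.76), 1.45-fold for WNT10B (1.11 to 1.90), 1.35-fold for WNT5A (1.30 to 1.41) and 1.10-fold for WNT7B (1.04 to 1.16), whereas the interval for WNT3 included no change (1.30-fold, 0.995 to 1.69) unless the libraries were scaled by their median ratio. These are exact Clopper-Pearson intervals of the fragments and cover counting error only. With an assumed dispersion of 0.01 between libraries, WNT5A and WNT5B alone of the ligands stayed above no change, and with 0.04 none did.

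The summed FPKM of the 19 ligands was 71.7 in shControl and 90.2 in shFKBP9. WNT5A accounted for 59.7% of the added 18.5 FPKM, WNT5B for 16.2% and WNT7B for 16.0%. WNT5A held 44.0% of the ligand FPKM in shControl and 47.3% in shFKBP9, and WNT7B held 43.2% and 37.7%. As FPKM divides by gene length and WNT5A is the longer gene, its share of the ligand fragments was larger, 54.7% and 58.2%. The other 14 ligands together held under 1% of the FPKM, since the 5 named above held 99.6% and 99.5%.

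**Figure D2:**
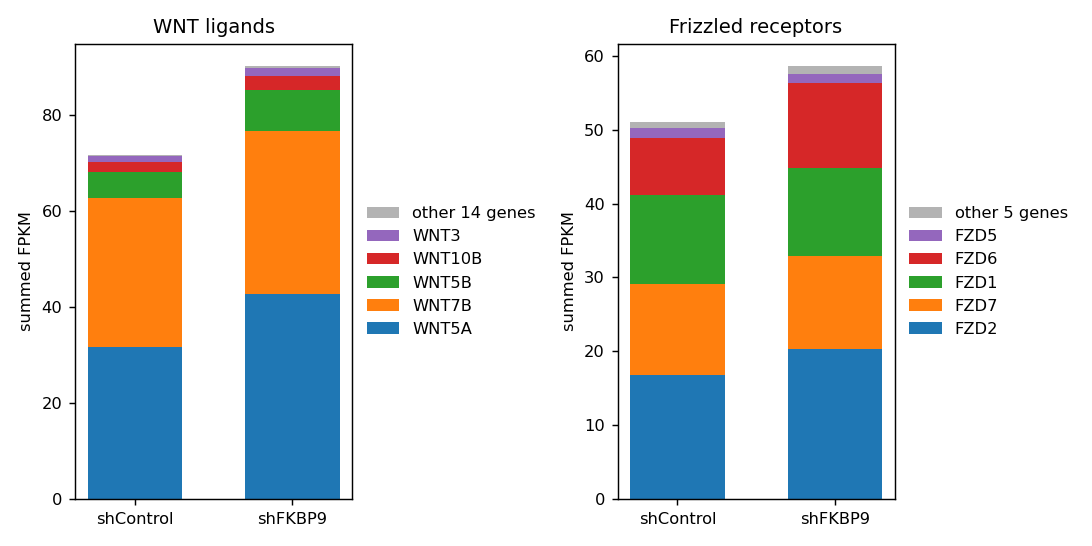
Summed FPKM of the 19 WNT ligands (left) and of the 10 Frizzled receptors (right) in the shControl and shFKBP9 libraries, stacked by gene from 0; each bar is 1 library, without error. The ligand bar grows from 71.7 to 90.2, mainly in its WNT5A part, and the receptor bar from 51.1 to 58.7, mainly in its FZD6 and FZD2 parts.

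The remaining ligands lay near the limit of detection. WNT2B had 26 fragments in shControl and 27 in shFKBP9 (1.10-fold, 95% interval 0.616 to 1.96). WNT16 had 3 and 8 (2.81-fold, 0.676 to 16.5), WNT10A had 3 and 5 (1.76-fold, 0.342 to 11.3) and WNT4 had 1 and 4 (4.22-fold, 0.418 to 208), so that a difference was not detectable at this depth. WNT9B had 2 and 1 fragments, WNT9A 1 and 0, WNT11 0 and 1, and WNT8B 0 and 1. Some ligand genes overlap others in the table, and whether the counting used strand is not given in the sources used here, so their reads cannot be told apart. WNT5A-AS1, antisense to WNT5A, had 145 and 119 fragments. FBXL14, which overlaps WNT5B, had 473 and 462 fragments, and ST7L, which overlaps WNT2B, had 398 and 336. None of these partners was higher in shFKBP9 beyond counting error.

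The Frizzled receptors were led by FZD2, FZD7, FZD1 and FZD6, which held 95.8% of the receptor FPKM in shControl and 95.9% in shFKBP9. FZD2 was at 16.8 FPKM in shControl and 20.4 FPKM in shFKBP9 (642 and 738 fragments; 1.21-fold, 95% interval 1.09 to 1.35). FZD6, a receptor known for its part in cell polarity, was at 7.70 FPKM and 11.4 FPKM (567 and 796 fragments; 1.48-fold, 1.33 to 1.65). FZD7 was at 12.4 FPKM and 12.6 FPKM (1.01-fold, 0.922 to 1.12), and FZD1 at 12.0 FPKM in both (1515 and 1429 fragments; 0.995-fold, 0.926 to 1.07). Between these libraries, and by counting error only, the intervals of FZD2 and FZD6 lay above 1 and those of FZD7 and FZD1 included it. The interval of FZD6 did not overlap those of FZD7 and FZD1. With an assumed dispersion of 0.01 between libraries, FZD2 was no longer above no change. With 0.04, FZD6 was not either. The share of FZD6 in the receptor FPKM was 15.1% in shControl and 19.4% in shFKBP9.

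Of the Frizzled genes at lower levels, FZD5 was at 1.34 FPKM in shControl and 1.23 FPKM in shFKBP9 (0.919-fold, 95% interval 0.729 to 1.16). FZD8 had 20 and 38 fragments (2.0-fold, 1.14 to 3.64), and FZD3, which acts in axon guidance, had 78 and 104 (1.41-fold, 1.04 to 1.91). FZD4, the receptor for norrin, had 32 and 24 fragments (0.791-fold, 0.446 to 1.39). PRSS23, which overlaps FZD4 on the other strand, had 4942 and 4344 fragments, and BAALC-AS1, which overlaps FZD6, had 85 and 97. The interval for BAALC-AS1 included no change.

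Co-receptors of both branches were read at unequal levels. LRP6 was at 3.78 FPKM in shControl and 4.14 FPKM in shFKBP9 (708 and 734 fragments; 1.09-fold, 95% interval 0.986 to 1.22), and was 46.9 times as high as LRP5 in shControl and 29.2 times in shFKBP9. LRP5 itself had 9 and 15 fragments. ROR1, a receptor tyrosine kinase-like protein that binds WNT5A, was low at 0.214 FPKM and 0.382 FPKM (26 and 44 fragments; 1.78-fold, 1.08 to 3.02). ROR2, the other ROR receptor of WNT5A, had no fragment in either library.

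The DKK and SFRP antagonists were at low levels, and SFRP4 had the largest ratio of the 29 members with at least 10 fragments. SFRP4 had 20 fragments in shControl and 55 in shFKBP9, at 0.306 FPKM and 0.888 FPKM, and was 2.90-fold higher (95% interval 1.71 to 5.11). DKK1, a canonical target gene and inhibitor of LRP co-receptors, had 17 and 31 fragments, at 0.426 FPKM and 0.819 FPKM, and was 1.92-fold higher (1.03 to 3.71). SFRP2 was the only DKK or SFRP gene above 1 FPKM, at 1.30 FPKM in shControl and 1.86 FPKM in shFKBP9, from 48 and 65 fragments (1.43-fold, 0.970 to 2.12). DKK3, a divergent member of its family, had 68 and 70 fragments (1.09-fold, 0.767 to 1.54). DKK2 was read in shFKBP9 alone, with 9 fragments against 0 in shControl. With 3 fragments in place of the 0, and the 9 taken as exact, it was at least 3.17-fold higher, while its exact 95% interval began at 2.08-fold.

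Of the 4 DKK and SFRP genes with at least 10 fragments, the intervals of SFRP4 and DKK1 lay above 1, and those of SFRP2 and DKK3 included it. Over all genes with at least 10 fragments, 14.0% lay above. DKK1 was no longer above with an assumed dispersion of 0.01, and it did not reach a minimum of 50 fragments. SFRP4 stayed above with a dispersion of 0.04. SFRP4 (chromosome 7, 37905932 to 38025695, minus strand) overlaps EPDR1 on the other strand, which was at 59.9 FPKM in shControl and 57.1 FPKM in shFKBP9 from 3108 and 2807 fragments. Whether reads of EPDR1 were counted for SFRP4 was not tested.

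Of β-catenin and its destruction complex, AXIN2 was higher in shFKBP9 beyond counting error, CTNNB1 was slightly lower, and the intervals of APC and AXIN1 included no change. CTNNB1 was at 40.0 FPKM in shControl, the highest of the 48 genes there, and at 38.6 FPKM in shFKBP9, below WNT5A, from 8637 and 7909 fragments. Its ratio was 0.966 (95% interval 0.938 to 0.997), the only one of the 48 with an interval below 1, and this small difference was lost when the libraries were scaled by their median ratio. APC was at 3.06 FPKM and 2.87 FPKM (0.935-fold, 0.839 to 1.05) and AXIN1 at 2.90 FPKM and 2.61 FPKM (0.899-fold, 0.776 to 1.04). AXIN2, a feedback inhibitor that is itself a target of β-catenin, was at 1.09 FPKM and 1.47 FPKM, from 103 and 132 fragments (1.35-fold, 1.04 to 1.77). These are RNA levels, and the amount of β-catenin protein, which the destruction complex sets, was not measured by them.

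Among the 3 TCF/LEF factors of the 48 genes, TCF7L2 had the highest level, at 1.79 FPKM in both libraries (218 and 207 fragments, 1.0-fold, 95% interval 0.825 to 1.22). LEF1 had 79 and 58 fragments, at 0.814 FPKM in shControl and 0.630 FPKM in shFKBP9, and its interval included no change (0.774-fold, 0.543 to 1.10). TCF7L1 had 13 fragments in each library. None of these 3 factors differed beyond counting error. TCF7, a further TCF/LEF factor that is listed below among the nuclear partners, had a higher level than TCF7L2. It was at 6.17 FPKM in shControl and 8.33 FPKM in shFKBP9 (1.35-fold, 95% interval 1.25 to 1.46).

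**Figure D3:**
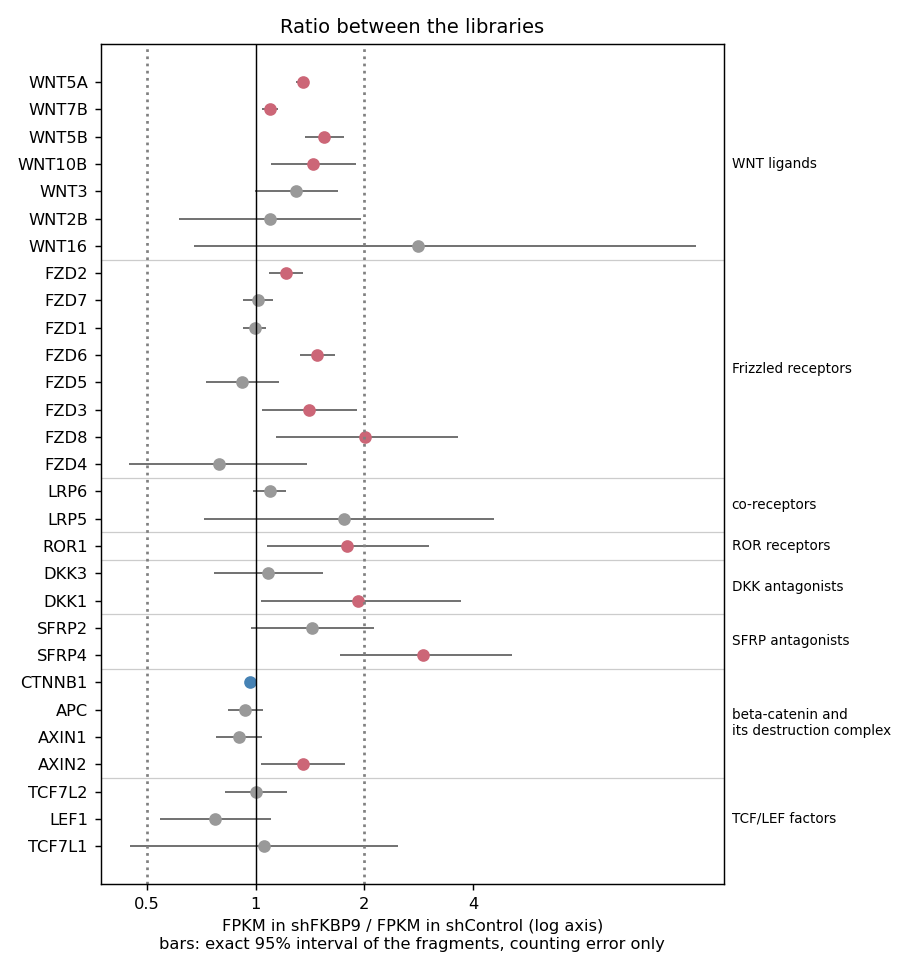
FPKM in shFKBP9 divided by that in shControl (log axis) for the 29 members with at least 10 fragments, grouped by role; bars are exact 95% intervals of the fragments (counting error only) and dotted lines mark 2-fold. The intervals of 12 genes lie above 1, led by SFRP4 at 2.90-fold, and that of CTNNB1 lies below 1 at 0.966-fold.

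Counted over the 48 genes, 0 were more than 2-fold higher and 0 more than 2-fold lower by the log2 ratio of FPKM with 0.1 added, among the 17 with at least 1 FPKM in either library. Over all 12741 genes at that level, 2.02% were more than 2-fold higher and 2.19% more than 2-fold lower. All members are protein-coding, and of the 10346 protein-coding genes at that level 22 were higher and 20 lower by this rule. The log2 ratios of the 17 members ran from -0.15 (AXIN1) to 0.62 (WNT5B), with 12 above 0 and 5 below, against 5951 and 6789 of all genes at that level. The sign of FZD1 turned with scaling by the median ratio and that of TCF7L2 on the TPM scale. The median of the members was 0.13 against -0.02 over all genes at that level. Under 1 FPKM, the log2 ratios of SFRP4 (1.28) and DKK2 (1.15) exceeded 1, and 55 and 9 fragments in shFKBP9 lay behind them.

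The interval of the ratio lay above no change for 12 and below it for 1 of the 29 members with at least 10 fragments. Over all 17105 genes with at least 10 fragments, these shares were 14.0% and 16.7%, and over the 13040 protein-coding ones 16.9% and 20.1%, against 41.4% and 3.45% of the members. The 12 genes were WNT5A, WNT5B, WNT7B, WNT10B, FZD2, FZD3, FZD6, FZD8, ROR1, DKK1, SFRP4 and AXIN2, from 1.10-fold to 2.90-fold. By role, they were 4 of 7 ligands, 4 of 8 Frizzled receptors, 1 of 1 ROR receptor, 1 of 2 DKK and 1 of 2 SFRP antagonists, 0 of 2 co-receptors, 1 of 4 genes of the destruction complex and 0 of 3 TCF/LEF factors. The intervals compare these libraries and not the conditions. With an assumed dispersion of 0.01 between libraries the 12 became 6 (WNT5A, WNT5B, FZD6, FZD8, ROR1 and SFRP4) and with 0.04 they became 1 (SFRP4), against 2.63% and 0.795% of all genes.

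**Figure D4:**
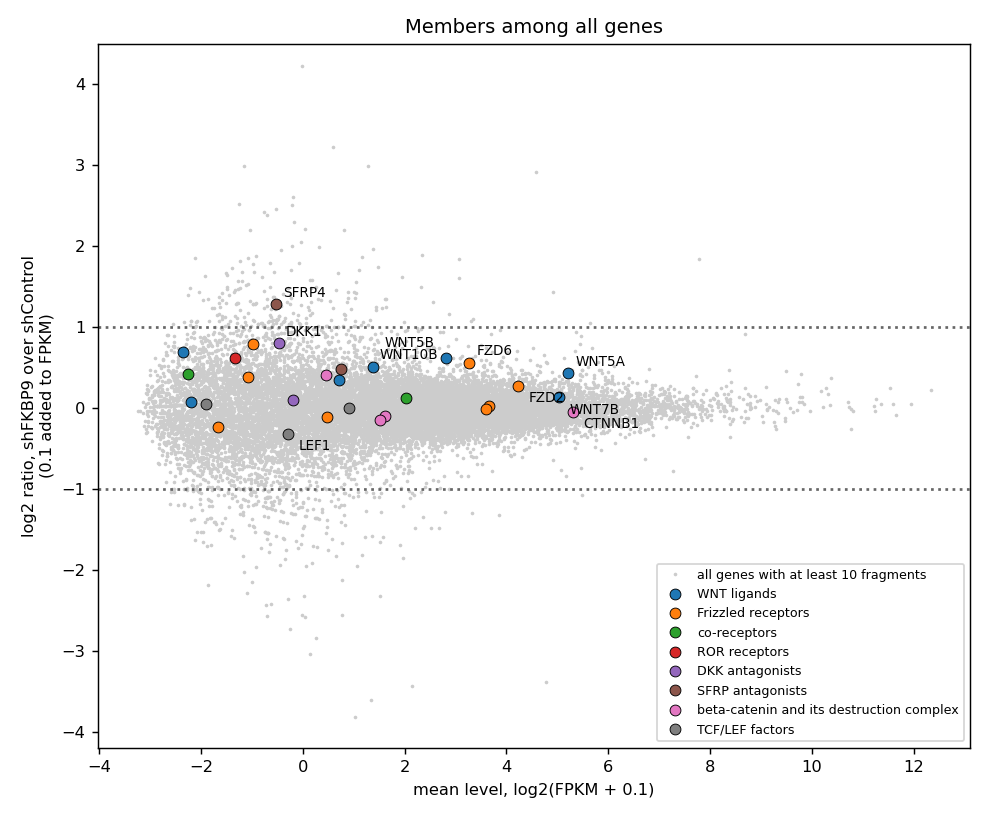
Log2 ratio of shFKBP9 over shControl (0.1 added to FPKM) against the mean level for all genes with at least 10 fragments (grey) and the 29 members (colours by role); dotted lines mark 2-fold. The members lie within the cloud of all genes, and SFRP4 at 1.28 is the only one beyond a dotted line.

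The other genes of the pathway were taken from a list of 63 genes, of which 47 had at least 10 fragments. The interval lay below no change for 18 of these and above it for 4, against 16.7% and 14.0% of all genes. With an assumed dispersion of 0.01 between libraries these became 3 (PORCN, SOST and CELSR2) and 1 (TCF7), or 6.38% and 2.13%. Over all genes these shares were 2.79% below and 2.63% above. With 0.04 they became 2 (SOST and CELSR2) and 0, or 4.26% and 0%, against 0.719% and 0.795% of all genes. The median log2 ratio of the 41 with at least 1 FPKM was -0.10, with 14 above 0 and 27 below. Both genes of ligand processing were lower in shFKBP9 beyond counting error: PORCN, the acyltransferase that attaches the lipid to WNT proteins, was at 19.1 FPKM in shControl and 13.6 FPKM in shFKBP9 (1039 and 703 fragments; 0.714-fold, 95% interval 0.648 to 0.787), and WLS, which carries WNT proteins to the cell surface, at 17.0 FPKM and 15.5 FPKM (0.912-fold, 0.844 to 0.987). SOST, which encodes the LRP inhibitor sclerostin, was the only gene of the list past 2-fold by the log2 ratio with 0.1 added and at least 1 FPKM in either library, at 5.76 FPKM in shControl and 2.61 FPKM in shFKBP9 (240 and 103 fragments; 0.453-fold, 0.356 to 0.573). It belongs to a group of 10 further antagonists, among them the SFRP relative FRZB, of which 6 had at least 10 fragments. The other 5 of these lay between 0.857-fold and 0.946-fold, and their intervals included no change.

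In the cytoplasm, 7 of 16 genes had an interval below no change and 0 above it, against 16.7% and 14.0% of all genes. With an assumed dispersion of 0.01 the 7 became 0, against 2.79% of all genes. These were DVL1, DVL2 and DVL3, which relay the Frizzled signal, the kinases GSK3A, CSNK1D and CSNK1E, and APC2. Scaling by the median ratio ended the calls of CSNK1D and CSNK1E, and that of the nuclear gene PYGO2. DVL1 led them, at 32.8 FPKM in shControl and 30.4 FPKM in shFKBP9 (0.928-fold, 95% interval 0.875 to 0.988), and APC2 had the largest difference (0.814-fold, 0.716 to 0.928). Of 10 nuclear partners of β-catenin, BCL9, BCL9L, PYGO2, TLE3 and CHD8 lay below, between 0.792-fold and 0.902-fold, and TCF7 lay above, at 6.17 FPKM in shControl and 8.33 FPKM in shFKBP9 (1.35-fold, 1.25 to 1.46). PYGO2 had the highest level of them in shControl, 12.5 FPKM.

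Of the 9 genes of the β-catenin-independent branch with at least 10 fragments, RYK, a receptor of WNT5A, was at 5.40 FPKM in shControl and 6.40 FPKM in shFKBP9 (1.18-fold, 95% interval 1.08 to 1.31), and PTK7 and PRICKLE2 were 1.06-fold and 1.09-fold higher, which were no longer beyond counting error on the TPM scale. The polarity cadherins were lower: CELSR1 at 0.781-fold (0.720 to 0.849), CELSR3 at 0.764-fold (0.706 to 0.827) and CELSR2, from 122 and 51 fragments, at 0.441-fold (0.312 to 0.617). LGR4, the R-spondin receptor, was at 34.9 FPKM and 34.4 FPKM (0.986-fold, 0.944 to 1.03), and the interval of KREMEN1, a receptor for DKK proteins, included no change as well (0.946-fold, 0.873 to 1.03).

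The list of 18 genes often induced by β-catenin and TCF/LEF shares 7 genes with the list above. Of 13 with at least 10 fragments, 5 had an interval above no change and 0 below, against 14.0% and 16.7% of all genes. With an assumed dispersion of 0.01 the 5 became 4 (30.8%), without CD44, and with 0.04 they became 0, against 2.63% and 0.795% of all genes. Under the minimum of 10 fragments, RNF43, a ubiquitin ligase that removes Frizzled receptors and is on both lists, was read in shControl alone, with 6 fragments against 0, and its interval ended at 0.897-fold. GREM1, a BMP antagonist, was at 20.6 FPKM in shControl and 32.4 FPKM in shFKBP9 (1.58-fold, 95% interval 1.53 to 1.63), TNFRSF19 was 1.48-fold higher (1.26 to 1.75), CCND1, which encodes cyclin D1, 1.35-fold higher (1.30 to 1.41) and CD44 1.14-fold higher (1.11 to 1.18), and TCF7 is given above. The study reported lower cyclin D1 protein on immunoblots of SF-539 cells with FKBP9 knocked down. RNA and protein are unlike measures, and how the 2 relate was not tested here. For MYC (1.02-fold, 0.928 to 1.11) and LGR5 (0.922-fold, 0.709 to 1.20) the intervals included no change. Their median on the log2 scale was 0.03. Many of these genes respond to other pathways too.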

How the data were processed

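RNA from the SF-539 line was sequenced with 1 library each for shControl and shFKBP9. Per the methods and the processing notes of the submitters, cleaned paired-end reads were aligned to hg38 with HISAT2 2.0.5 and counted per gene with featureCounts 1.5.0-p3, and edgeR was used for the authors' differential expression. The authors deposited FPKM per gene with gene lengths, positions and biotypes. There were 0 further columns of values per library.

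Fragments were recovered as FPKM times gene length, divided by the smallest step of the library (0.0552 FPKM per fragment and kilobase in shControl, 0.0582 in shFKBP9). To within 1e-06 of a fragment, 100% of values were whole multiples. Folds are ratios of FPKM. Log2 ratios have 0.1 added to FPKM. A gene past 2-fold was counted where either library reached 1 FPKM. The 95% intervals were exact (Clopper-Pearson), and genes were counted by them from 10 fragments upwards; intervals and the limit of 3 fragments cover counting error only. No test between conditions was run. Fragment recovery and intervals were tested on simulated data. Positions of all 48 members overlapped those of GENCODE 44.

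The members and lists were chosen with earlier results of these data known. The genes named are all 48 members, FKBP9, and those of the other lists past 2-fold, with an interval on 1 side of no change, or with the highest FPKM of their role; MYC, LGR5, RNF43, FRZB, the cell type markers and the overlapping genes fall outside this rule. Promoters were printed in place of proteins, for which no sequences were used here. Alternatives were 1 or 0.01 added to FPKM, scaling by the median ratio or to TPM, other minimums, protein-coding genes alone and assumed dispersions. The work was done in Python 3.11.15 with scipy 1.17.1, pandas 2.3.3, matplotlib 3.10.9 and numpy 2.4.6.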

Additional observations from a re-analysis of the deposited data

How the results depend on the processing

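No paired analysis was possible because there was 1 library per condition, and no library could be left out. The number of members past 2-fold was 0 in each direction under every addition to FPKM, scaling and minimum tried, except that without a minimum 2 members (SFRP4 and DKK2) were higher, and the median log2 ratio of members became 0.32. Of the 12 members with an interval above no change, 6 were left with an assumed dispersion of 0.01 and 1 with 0.04. With a minimum of 50 fragments, which DKK1 did not reach, 11 were left. The 1 member below, CTNNB1, became 0 with both dispersions and with scaling by the median ratio. Under that scaling WNT3 joined those above, making 13. For the other pathway genes, alternatives chosen after seeing the data turned the 18 below and 4 above into 15 and 5 with scaling by the median ratio, 18 and 2 on the TPM scale, 3 and 1 with a dispersion of 0.01, and 2 and 0 with 0.04, and the 5 target genes above into 4 and 0 with these dispersions. Over all genes, 258 higher and 279 lower became 138 and 153 when 1 was added, 40 and 41 when both libraries had to reach 1 FPKM, 2022 and 1993 when no minimum was set, and 22 and 20 of 10346 when protein-coding genes alone were used; those with an interval on 1 side became 450 and 477 with a dispersion of 0.01 and 136 and 123 with 0.04. The log2 ratio of FKBP9 was -3.16 with 1 added. The WNT5A share of ligands was 54.7% in shControl and 58.2% in shFKBP9 when fragments were not divided by gene length. Of 116 values of single members under alternatives, 115 stayed within their counting interval; SFRP4 with 1 added to FPKM was at 0.53. The medians of the other pathway genes and of the target genes moved by less than 0.1. Dispersion between libraries cannot be measured here.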
